A study of Homo sapiens with 30 samples.

Results

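Ribosome biogenesis genes and genes of the nucleolus were examined in RNA-Seq of SH-EP neuroblastoma (NB) cells and of 4 SH-EP lines that express MYCN. The 45 genes, called members here, were chosen by name, from rRNA processing, nucleolar assembly, and RNA polymerase I. No value measured in these libraries served as a rule, but earlier results of these data were known, so counts over the members are descriptions. The members are 45 of 26228 genes listed, and all 45 were among the 11575 genes tested. The genes tested had an FPKM (fragments per kilobase of transcript, scaled to the number of fragments sequenced) that averaged 1 or more over all libraries. SH-EP, written SHEP in the sample labels, is an established NB line from a human tumor that lacks MYCN amplification. It was compared with stable derivatives made by retroviral transfer of a MYCN transgene under an exogenous promoter, which carried WT MYCN, the mutants T58A or S62A, or the double mutant T58A S62A, called the double mutant from here on. Threonine 58 and serine 62 are phosphorylation sites of MYC proteins that control their turnover. Parental cells and each MYCN line were treated for 6 hours with DMSO, the solvent control, or with 1 μM CYC065, an inhibitor of the cyclin-dependent kinases CDK2 and CDK9. There were 3 libraries for each of the 10 groups and 30 in all, called a, b, and c within a group by the number of their column in the table. The sources used here do not say whether a line was 1 clone or whether the 3 libraries of a group came from separate cultures, so the p-values measure the spread between these libraries, which may be technical.

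Ribosomes are made in the nucleolus, where RNA polymerase I transcribes the rRNA precursor. Small nucleolar ribonucleoproteins (snoRNPs) of the box C/D kind guide its 2′-O-methylation and those of the box H/ACA kind guide its pseudouridylation. The small subunit processome folds and cuts the part that becomes the 40S subunit, and a separate series of assembly factors builds the 60S subunit. Genes of this pathway are known targets of MYC family transcription factors, which bind the E-box CACGTG, and CDK9 is the kinase that releases paused RNA polymerase II into elongation.

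Levels were compared on 2 scales. The deposited FPKM express each gene as a share of the mRNA sequenced. In the second scale, called spike-in scaled here, each library was multiplied to bring its ERCC spike-ins to a common level. These synthetic RNAs had been added by cell number, so that scale sets mRNA against the cells counted. Tests were limma fits on log2(FPKM + 0.1), changes are log2 differences ± SE, and a change passed the test where its p, adjusted by Benjamini-Hochberg, was under 0.05. MYCN was listed at 0 in all 6 parental libraries and had group means of 5.72 to 18.3 FPKM in the MYCN lines, as labeled. MYC was at 4.94 ± 0.491 FPKM (SD, n = 3) in parental cells in DMSO and at group means of 0.446 to 1.60 in the MYCN lines, and with CYC065 it was at 17.4 ± 0.984 and at 4.40 to 12.6. The number of reads is not given, and relative depth, read from the lowest FPKM values, was 0.470 to 1 in DMSO libraries and 0.293 to 0.554 in CYC065 libraries. The spike-ins had a median of 6.26 to 6.74 FPKM in parental DMSO libraries and 22.2 to 28.8 in S62A DMSO libraries. They were at 12.6 to 18.4 in WT, 10.7 to 17.3 in T58A, and 10.3 to 13.1 in double mutant DMSO libraries. The spike-in scale thus lowers all 4 MYCN lines against parental SH-EP in DMSO, and S62A the most. Of the adrenergic NB markers, PHOX2A was listed at 0 in every library and DBH and CHGA reached at most 0.0300 and 0.0823 FPKM. TH was at 0.0499 to 0.202 FPKM in parental DMSO libraries and at 0.669 to 0.969 in double mutant CYC065 libraries, its highest level in any library. In S62A it was no higher than 0.0664 FPKM in DMSO and 0.0951 with CYC065, and in parental CYC065 libraries no higher than 0.574. The part of TH in the results was not tested. The 4 mesenchymal markers PRRX1, SNAI2, VIM, and FN1 summed to 2866 to 2974 FPKM in parental DMSO libraries and to 1377 to 2023 in those of the MYCN lines, where all 4 were lower. They moved with the line as the members did, in the opposite direction, and their part in the result was not tested. All 6 parental libraries carry a barcode that a MYCN-line library also carries, and no barcode is shared among the MYCN lines. Whether the parental libraries were sequenced apart is not given in the sources used here, and such a difference cannot be told apart from that between SH-EP and the MYCN lines.

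The members were well expressed genes. Their mean level in parental DMSO cells had a median of 32.9 FPKM, with 41 of 45 above the median of all genes tested, 10.8 FPKM. NPM1 was the highest, at 713, 739.9, and 763 FPKM in the 3 libraries. NCL followed at 312, 341, and 323 FPKM and FBL was at 117, 118, and 114 FPKM. At the other end, the lowest group mean was 4.62 FPKM. All members have a position in the annotation used (GENCODE, on GRCh37), on 19 chromosomes, with at most 8 on the same chromosome. Among them 8, NCL, GNL3, NOP56, NOP58, DKC1, WDR43, PPAN, and POLR1C, carry 23 annotation entries for small nucleolar or small Cajal body RNAs. Some of these RNAs are entered repeatedly, such as SNORD19 in GNL3, and POLR1C holds only SCARNA15, a small Cajal body RNA. Named pseudogenes exist for 12, with 49 for NPM1, 5 for DDX18, and 3 each for RRN3, NOP56, and NIP7, and 5 members share same-strand exons with another annotated gene, as PPAN does with the readthrough gene PPAN-P2RY11. The FPKM of those genes are uncertain to the extent that reads were shared.

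In DMSO, the members took a larger share of the mRNA in the MYCN lines than in parental SH-EP, and on the spike-in scale, where 70.2% to 95.1% of all genes tested were lower in those lines, the direction turned and the median member was below its parental level in every line. On FPKM as deposited, 44 of 45 members rose in the WT line, where 31.6% of all genes tested rose. The count was 40 for T58A (background 30.9%), 36 for S62A (31.0%), and 43 for the double mutant (31.2%). Only 3 calls went down. NIP7 fell in T58A, and RRP12 and NOC3L fell in S62A, where 23.3% and 23.4% of all genes fell. The call in T58A was lost without parental DMSO library c or T58A DMSO library b, and 1 of those in S62A without parental DMSO library c or S62A DMSO library a. The median member changed by 0.79, 0.69, 0.55, and 0.74 in log2 in the 4 lines, in that order, and the median gene by 0.071, 0.053, 0.063, and 0.059. In all 4 lines together, 34 members rose, against 19.2% of all genes. The FPKM of the 45 members summed to 2943 ± 29.1 (SD, n = 3) in parental cells, 5830 ± 251 for WT, 5246 ± 225 for T58A, 5091 ± 206 for S62A, and 5489 ± 94.0 for the double mutant. The 4 comparisons share the parental libraries.

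**Figure D1:**
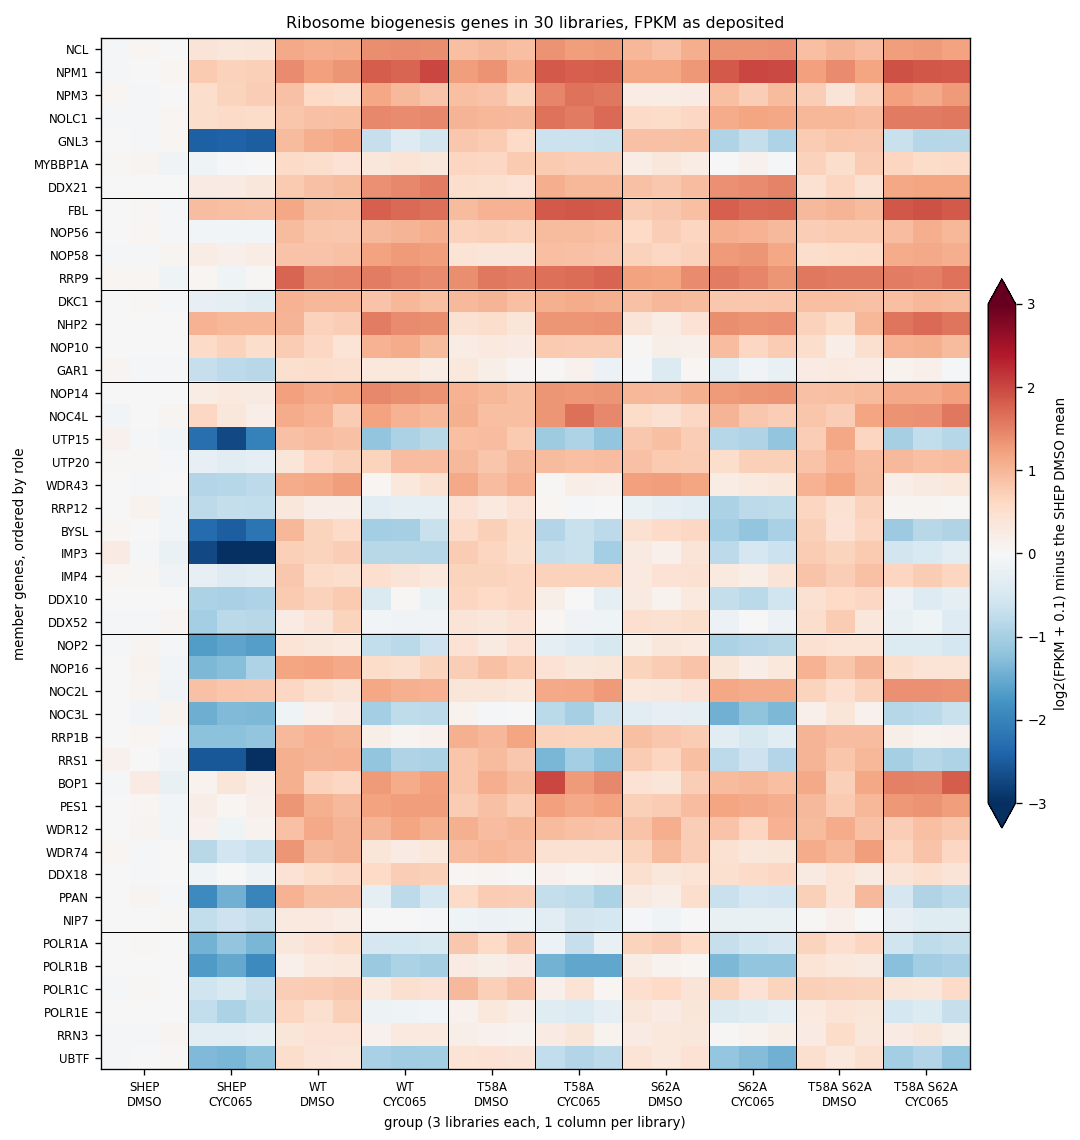
Each row is a member gene, grouped by role, and each column a library, with color for log2(FPKM + 0.1) minus the mean of the 3 SHEP DMSO libraries. The DMSO columns of the MYCN lines are mostly red, whereas the SHEP CYC065 columns hold dark blue rows such as IMP3, RRS1, and GNL3, next to red rows such as FBL and NHP2. These are FPKM as deposited, and on the spike-in scale the red of the DMSO columns is lost.

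Among the nucleolar proteins with several roles, all 7 rose in each of the 4 lines. NPM1 (nucleophosmin; chromosome 5, 170814120 to 170838814, plus strand), a scaffold and chaperone of the nucleolus with many pseudogene copies, was at 1978, 1738, and 1839 FPKM in the WT line, at 1758, 1873, and 1559 in T58A, at 1654, 1661, and 1813 in S62A, and at 1732, 1972, and 1675 in the double mutant. Every MYCN-line library was above every parental one, and the mean change over the lines was 1.26 ± 0.057 (adjusted p = 3.04e-15). NCL (nucleolin; chromosome 2, 232318242 to 232348352, minus strand), which binds nascent pre-rRNA, was at 312, 341, and 323 FPKM in parental cells and ranged over the 12 MYCN-line DMSO libraries from 603 to 721 (median 643) FPKM, with a mean change of 1.00 ± 0.035 (adjusted p = 2.13e-17). The smallest change in this group was that of MYBBP1A (chromosome 17, 4442192 to 4458681, minus strand), at 27.2, 28.1, and 24.5 FPKM in parental cells and at 30.8 to 46.2 (median 39.0) in the MYCN lines (0.53 ± 0.051, adjusted p = 3.03e-09). GNL3 (nucleostemin, a GTPase), NOLC1 (a snoRNP chaperone), DDX21 (an RNA helicase), and NPM3 (a relative of NPM1) had mean changes of 0.87, 0.85, 0.69, and 0.58.

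The 4 box C/D proteins also rose in every line. RRP9 (chromosome 3, 51967445 to 51975920, minus strand), the protein particular to the U3 snoRNP, had the highest mean change of the 45 members. It was at 22.3, 22.3, and 19.5 FPKM in parental libraries and at 48.5 to 71.7 in those of the MYCN lines, which do not overlap (1.47 ± 0.063, adjusted p = 1.07e-15). FBL (fibrillarin, the methyltransferase; chromosome 19, 40325098 to 40337019, minus strand) was at 198 to 261 (median 226) FPKM in the MYCN lines (0.96 ± 0.039, adjusted p = 4.62e-16). NOP58 (chromosome 2, 203130459 to 203168384, plus strand), with NOP56 a core protein of the particle, changed least, from 84.0, 84.6, and 92.1 FPKM in parental cells to 111 to 159.9 (median 131) (0.62 ± 0.031, adjusted p = 2.8e-14).

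The box H/ACA proteins differed more among themselves. DKC1 (dyskerin, the pseudouridine synthase; chromosome X, 153991017 to 154005964, plus strand) rose in all 4 lines, from 53.5, 54.8, and 51.3 FPKM to 97.8 to 109.6 (median 104) (0.95 ± 0.033, adjusted p = 2.22e-17). Its partner GAR1 (chromosome 4, 110736666 to 110745896, plus strand) was at 50.6, 46.7, and 46.4 FPKM in parental cells and at 36.2 to 69.1 (median 56.7) in the MYCN lines, and these ranges overlap. GAR1 rose in WT (0.50 ± 0.090, adjusted p = 5.58e-05) and the double mutant (0.26 ± 0.090, adjusted p = 0.0181), and its differences were 0.19 ± 0.090 in T58A (adjusted p = 0.0746) and -0.13 ± 0.090 in S62A (adjusted p = 0.244). The other core proteins, NHP2 and NOP10, had mean changes of 0.59 and 0.35, and NOP10 did not pass the test in S62A (0.12, adjusted p = 0.224).

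Of the 11 factors of the small subunit processome and 40S assembly, all rose in WT, T58A, and the double mutant, and 8 rose in S62A. WDR43 (chromosome 2, 29117533 to 29171085, plus strand), a processome subunit that also acts in rRNA transcription, led with 27.6, 26.7, and 27.7 FPKM in parental cells against 52.4 to 65.8 (median 61.0) in the MYCN lines (1.13 ± 0.061, adjusted p = 8.1e-14). NOP14 followed, with a mean change of 1.02. RRP12 (chromosome 10, 99116115 to 99185833, minus strand), an export and maturation factor, was last and differed between lines. It was at 35.1, 38.2, and 33.8 FPKM in parental cells, at 55.7, 49.3, and 57.5 in the double mutant, and at 31.3, 29.3, and 28.6 in S62A, so that the S62A libraries lay below all parental ones. Its change was 0.60 ± 0.061 in the double mutant (adjusted p = 9.71e-09) and -0.26 ± 0.061 in S62A (adjusted p = 0.000773). IMP3 and DDX10, a U3 snoRNP protein and an RNA helicase, were the other members of this group that did not rise in S62A (0.27, adjusted p = 0.0585, and 0.22, adjusted p = 0.076).

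The 13 factors of 60S assembly held both strong and absent changes. WDR74 (chromosome 11, 62599814 to 62609281, minus strand), a factor of 60S maturation, was at 24.6, 22.7, and 23.3 FPKM in parental libraries and at 37.2 to 58.9 (median 46.6) in the MYCN lines (0.99 ± 0.068, adjusted p = 8.8e-12). PES1, BOP1, and WDR12, which form the PeBoW complex, rose in every line, with mean changes of 0.91, 0.82, and 0.97. NOC3L (chromosome 10, 96092983 to 96122716, minus strand), a 60S export factor, was at 26.5, 25.3, and 29.1 FPKM in parental cells and at 21.4 to 34.5 (median 27.9) in the MYCN lines. It passed the test only in S62A, where it was lower (-0.28 ± 0.097, adjusted p = 0.0173). NIP7, a factor of pre-rRNA processing, rose in WT (0.27, adjusted p = 0.000168) and fell in T58A (-0.15, adjusted p = 0.0212).

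RNA polymerase I and its factors had the smallest median change of the 6 role groups over the 4 lines, 0.39, beside 0.85 for the nucleolar proteins, 0.85 for box C/D, 0.47 for box H/ACA, 0.63 for the 40S and 0.82 for the 60S factors. These medians are descriptions of groups of 4 to 13 genes and were not tested against each other. POLR1C (chromosome 6, 43477440 to 43530156, plus strand), a subunit shared with RNA polymerase III, rose from 21.3, 22.3, and 21.7 FPKM to 28.6 to 42.6 (median 35.8) (0.70 ± 0.070, adjusted p = 5.76e-09). POLR1B (chromosome 2, 113299492 to 113337395, plus strand), the second largest subunit, was at 18.4, 18.3, and 18.4 FPKM in parental cells and at 19.2 to 24.5 (median 21.8) in the MYCN lines, above all parental libraries but with a mean change of 0.24 ± 0.067 (adjusted p = 0.00405). POLR1B did not pass the test in S62A (0.13). UBTF (chromosome 17, 42282401 to 42298994, minus strand), the factor that binds rRNA gene promoters, rose by a like amount in every line (0.39 to 0.43), from 31.7, 33.3, and 33.7 FPKM to 41.2 to 47.6 (median 43.8) (adjusted p = 7.29e-07 for the mean change). RRN3, which recruits the polymerase, did not pass the test in T58A (0.14, adjusted p = 0.091).

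**Figure D2:**
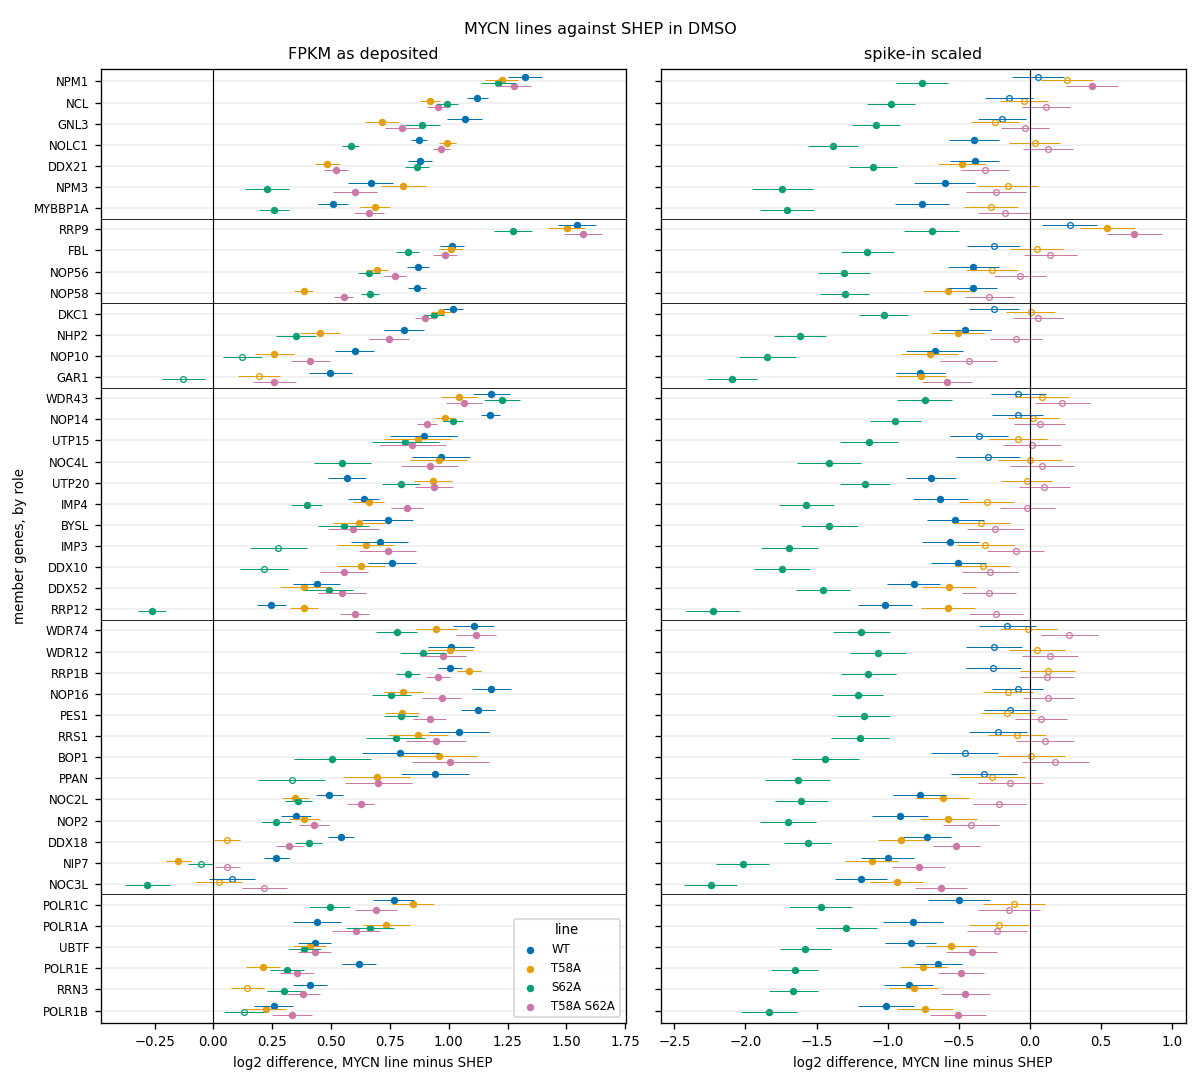
Log2 differences between each MYCN line and SHEP in DMSO for the 45 members by role, with SE as bars, on FPKM as deposited at left and spike-in scaled at right. Filled points passed the test at an adjusted p under 0.05 and open points did not. At left nearly all points are right of 0, led by RRP9 and NPM1, and at right most are left of 0, the S62A points farthest.

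On the spike-in scale no line showed a general rise of the members. For WT, 27 of 45 fell, where 88.7% of all genes tested fell. For T58A, 16 fell (78.0% of all genes), in S62A all 45 (95.1%), and in the double mutant 8 (70.2%). RRP9 rose in T58A (0.54 ± 0.19, adjusted p = 0.0132), where 1.86% of all genes rose. In the double mutant, RRP9 (0.73 ± 0.19, adjusted p = 0.00175) and NPM1 (0.43 ± 0.18, adjusted p = 0.0351) rose, with 2.26% of all genes. In all, 8 members, DDX18, GAR1, NIP7, NOC3L, POLR1B, POLR1E, RRN3, and UBTF, fell in all 4 lines, as did 67.7% of all genes. In bulk RNA, fewer cells at harvest than were counted for the spike-ins and less RNA per cell cannot be told apart.

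The scaling multiplies all genes of a library alike, so the distance between the members and the rest is carried over from the deposited scale and is no separate result. The median gene moved by -1.18, -0.89, -1.88, and -0.76 in WT, T58A, S62A, and the double mutant on the spike-in scale, and the median member by -0.46, -0.27, -1.41, and -0.10. The members' median minus that of all genes was 0.72, 0.62, 0.46, and 0.66, beside 0.72, 0.64, 0.48, and 0.68 on FPKM as deposited. The spike-in scaled FPKM of NPM1 show the spread behind this scale, with 2317, 2276, and 2531 in the parental libraries, 3260.0, 1956, and 2349 in WT, and 1353, 1555, and 1306 in S62A. The WT libraries spanned the parental values, and the S62A libraries lay below them. Counts on this scale also rested on the spike-ins used. With only those of at least 50 FPKM on average, the members that fell were 7 in T58A and 0 in the double mutant, in place of 16 and 8. Single libraries moved them too. Leaving out WT DMSO library b lowered the count of fallen members in WT from 27 to 17 and raised that of risen members from 0 to 1, and leaving out T58A DMSO library b lowered the fallen in T58A from 16 to 8. In the double mutant the count of 8 became 3 without double mutant DMSO library c and 5 without parental DMSO library c. The 1 risen member of T58A became 2 without T58A DMSO library b and 0 without library c, and the 2 of the double mutant became 1 without parental DMSO library a or b or double mutant DMSO library a or b.

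**Figure D3:**
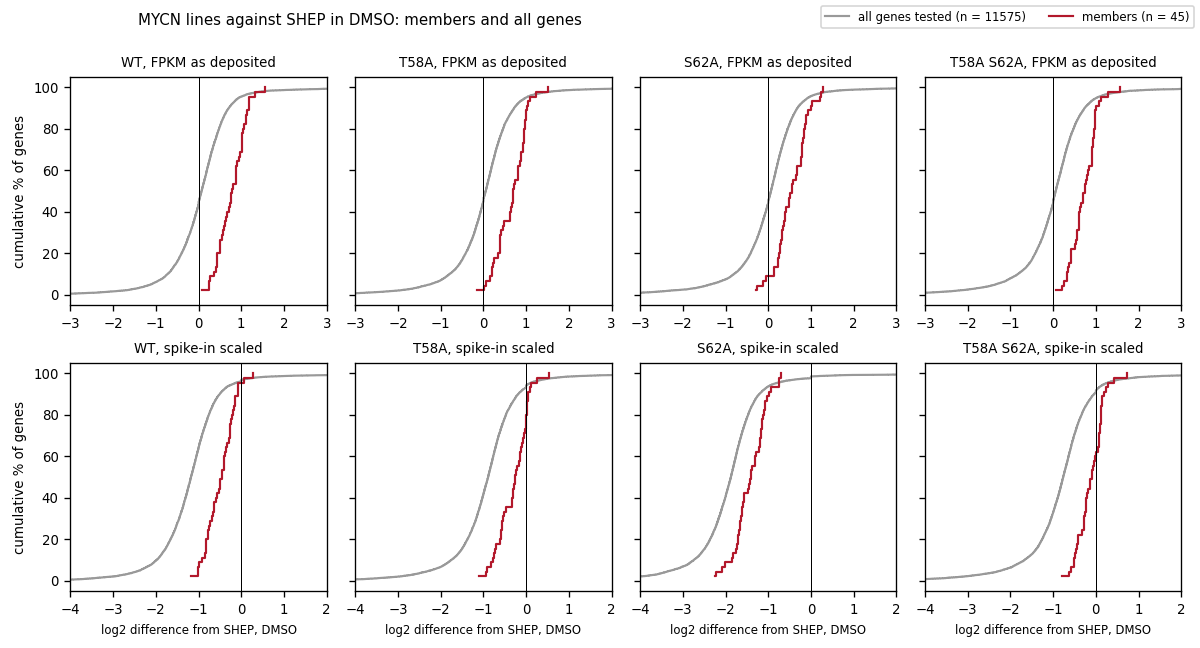
Cumulative percent of genes (y axis) against the log2 difference from SHEP in DMSO (x axis) for each MYCN line, with the 45 members in red and the 11575 genes tested in gray, on FPKM as deposited in the upper row and spike-in scaled in the lower row. The red curves lie right of the gray ones in the 4 upper panels. The lower panels repeat them moved left by the scaling, most in S62A, so that most members lie below 0 there.

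The members' promoters were searched for the E-box. RefSeq windows of 300 bases (250 before and 50 after the start, on GRCh38.p14) were matched for 36 of the 45 members by symbol. The hexamer CACGTG, which reads the same on both strands, was present in 12 of them (33.3%), in 10.6% of 8609 windows of genes tested, and in 7.43% of 27305 windows in all. By role it was found in 5 of 9 windows of the 40S factors, 3 of 9 of the 60S factors, 2 of 3 of box C/D, and 1 each of 4 box H/ACA and 6 nucleolar protein windows, and in none of the 5 windows of RNA polymerase I and its factors. The 12 members held 14 copies, 12 of which began at most 20 bases before the start, or after it (85.7%), whereas 225 of the 1034 copies in the windows of genes tested did so (21.8%). These are counts of letters, and no binding was measured here. The 4 windows shown were chosen as members with the motif and a high mean change over the lines. They are shown from 50 bases before to 25 bases after the start, 5′ to 3′ on the gene's strand, with CACGTG in capitals, and lie at chr3:51941880-51941954 (minus strand) for RRP9, chr2:28894617-28894691 (plus) for WDR43, chr4:2963382-2963456 (minus) for NOP14, and chr19:39846355-39846429 (minus) for FBL.
RRP9: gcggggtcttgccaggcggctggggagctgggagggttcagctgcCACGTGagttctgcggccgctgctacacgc
WDR43: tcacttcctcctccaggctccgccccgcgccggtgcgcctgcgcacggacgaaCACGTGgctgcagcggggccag
NOP14: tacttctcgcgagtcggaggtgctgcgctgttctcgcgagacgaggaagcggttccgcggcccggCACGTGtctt
FBL: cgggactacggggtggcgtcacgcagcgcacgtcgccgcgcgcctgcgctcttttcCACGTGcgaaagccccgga
In RRP9 the motif spans the start, and in the other 3 it lies in the first transcribed bases. The absence of a motif from a window, as in that of NPM1, says only that these letters were not there.

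The mutants were next compared with the WT line in DMSO, to ask whether the phosphorylation sites of MYCN bear on the level of the members. On FPKM as deposited the differences reached at most 0.62 in log2, that of GAR1. In S62A, 26 of 45 members were lower than in WT, where 14.0% of all genes tested were, and 1, UTP20, was higher (10.1% of all genes). In T58A, 15 were lower (13.0%) and 4 higher (10.7%), and in the double mutant 10 were lower (14.2%) and 3 higher (9.43%). The median member differed from WT by -0.10, -0.21, and -0.050 in T58A, S62A, and the double mutant. The mutants share the WT libraries.

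The largest differences were in S62A. GAR1 was at 66.3, 69.1, and 67.3 FPKM in WT and at 46.2, 36.2, and 50.03 in S62A (-0.62 ± 0.090, adjusted p = 1.64e-05). PPAN, a 60S factor that overlaps a readthrough gene, was at 59.8, 53.5, and 53.5 FPKM in WT and at 34.9, 33.3, and 41.4 in S62A (-0.61 ± 0.14, adjusted p = 0.00289). The groups do not overlap for either gene. DDX10 (22.5, 21.0, and 22.5 against 15.5, 13.9, and 15.8 FPKM, -0.54 ± 0.10, adjusted p = 0.000338) and RRP12 (45.2, 40.7, and 41.1 against 31.3, 29.3, and 28.6 FPKM, -0.51 ± 0.061, adjusted p = 1.08e-06) were also lower. RRP12 went the other way in the double mutant (0.35 ± 0.061, adjusted p = 0.000117). In T58A the largest were the helicase DDX18, at 65.9, 71.8, and 75.2 FPKM in WT and 50.3, 51.6, and 49.8 in T58A (-0.49 ± 0.056, adjusted p = 8.85e-07), and NOP58, at 158, 157, and 159.9 and 116, 113, and 111 (-0.48 ± 0.040, adjusted p = 5.64e-09). UTP20, a large scaffold of the processome, was higher than in WT in all 3 mutants (0.37, 0.23, and 0.37).

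After spike-in scaling these directions changed for T58A and the double mutant. All 45 members were lower than WT in S62A (74.9% of all genes), but 10 were higher in the double mutant (23.3%) and 1, UTP20, in T58A (8.10%). The lower level in S62A was thus common to both scales, as was that of most genes on the spike-in scale, and MYCN itself had its lowest DMSO mean in that line, 5.72 ± 0.778 FPKM (SD, n = 3) against 12.9 ± 1.09 in WT. Its part in the result was not tested. With a change of at least 1.5-fold required, 2 members were lower in S62A in place of 26, and with only the 2 groups in the fit, 15. The few higher calls on FPKM as deposited moved with single libraries. The 4 in T58A became 1 or 2 without WT DMSO library b or T58A DMSO library a or c, the 1 in S62A became 0 without WT DMSO library a or S62A DMSO library a or b, and the 3 in the double mutant became 5 without double mutant DMSO library b.

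With CYC065 most members fell on the spike-in scale, the scale of the study's methods. There, 43 of 45 fell in parental cells, where 76.3% of all genes tested fell, and 45 fell in WT (93.7%). The counts were 41 in T58A (84.5%), 45 in S62A (90.2%), and 41 in the double mutant (76.4%). In all 5 lines together, 40 members fell, against 69.8% of all genes. The median member changed by -1.59, -1.91, -1.30, -1.63, and -1.24 for SH-EP, WT, T58A, S62A, and the double mutant, and the median gene by -1.08, -1.58, -1.09, -1.35, and -0.98.

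As a share of mRNA, members went both ways, as all genes did, and in no line did a larger share of the members rise than of all genes. As deposited, 12 members rose and 26 fell in parental cells, with 42.7% of all genes rising and 33.5% falling. In WT 15 rose (37.0% of all genes) and 25 fell (34.2%), in T58A 17 rose (38.1%) and 21 fell (33.3%), in S62A 16 rose (38.8%) and 23 fell (34.6%), and in the double mutant 15 rose (38.6%) and 21 fell (34.2%). The members that rose in all 5 lines were 11, DDX21, FBL, NCL, NHP2, NOC2L, NOLC1, NOP10, NOP14, NOP58, NPM1, and NPM3 (28.5% of all genes). Those that fell in all 5 were 20 (24.4% of all genes), among them RRS1, UTP15, GNL3, BYSL, and 4 of the 6 RNA polymerase I genes, POLR1A, POLR1B, POLR1E, and UBTF. With a change of at least 1.5-fold required, the counts of risen members became 6, 3, 7, 6, and 9 for SH-EP, WT, T58A, S62A, and the double mutant. The share of all genes that rose at this limit was not computed, so these counts are descriptions.

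Of these 11 members, 9 were nucleolar or snoRNP proteins. NPM1 was at 1277, 1197, and 1219 FPKM in parental CYC065 libraries and at 2472 to 2956 (median 2626) in those of the MYCN lines, above the DMSO libraries of the same lines, with a mean change over the 5 lines of 0.64 ± 0.032 on FPKM as deposited (adjusted p = 2.4e-15) and -0.71 ± 0.081 on the spike-in scale (adjusted p = 3.95e-09). NCL was at 424, 414, and 418 FPKM in parental cells and at 747 to 873 (median 831) in the MYCN lines, with mean changes of 0.33 ± 0.020 (adjusted p = 4.9e-14) and, spike-in scaled, -1.02 ± 0.075 (adjusted p = 4.64e-13). Both genes thus rose as a share of mRNA and fell on the spike-in scale. FBL did the same, at 220.0, 219, and 213 FPKM in parental cells and 368 to 437 (median 409) in the MYCN lines (0.85 ± 0.022 as deposited, -0.50 ± 0.084 spike-in scaled), although its spike-in scaled fall did not pass the test in SH-EP, T58A, or the double mutant. NHP2 (chromosome 5, 177576464 to 177580895, minus strand), the core H/ACA protein with the smallest fall of all members, went from 125, 125, and 123 to 255, 247, and 247 FPKM in parental cells, with mean changes of 0.89 ± 0.038 as deposited and -0.46 ± 0.082 spike-in scaled (adjusted p = 7.21e-06). NHP2, FBL, NOC2L, NPM3, and BOP1 were the 5 members that did not fall in every line on the spike-in scale.

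**Figure D4:**
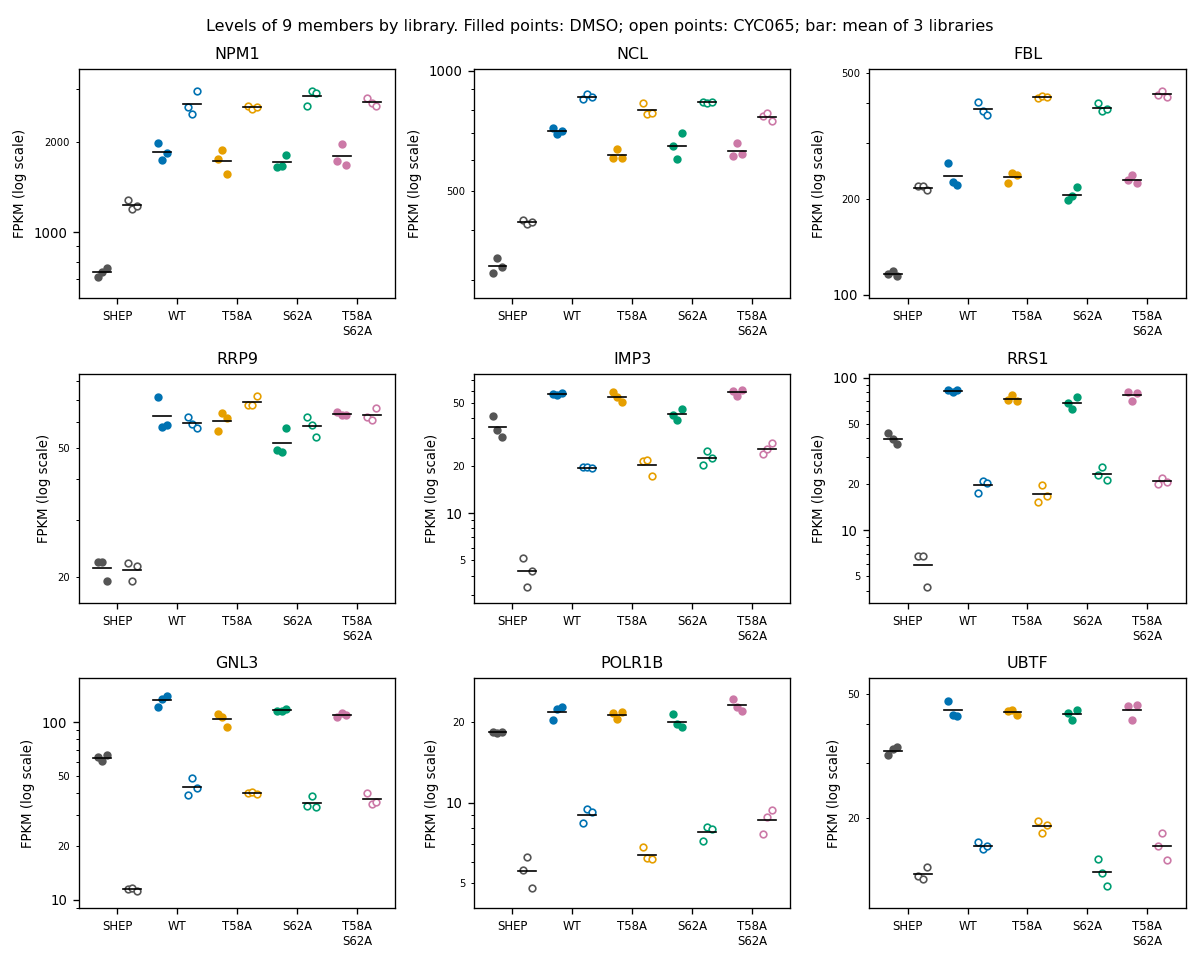
FPKM as deposited on a log axis in each of the 30 libraries for 9 members, by line, with DMSO as filled points, CYC065 as open points, and a bar at the mean of 3. NPM1, NCL, and FBL lie higher with CYC065 in every line, RRP9 hardly differs, and IMP3, RRS1, GNL3, POLR1B, and UBTF lie lower, with IMP3 near 4 FPKM in SHEP and near 20 in the MYCN lines. On the spike-in scale the means of NPM1, NCL, and FBL are lower with CYC065.

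The largest spike-in scaled falls over the 5 lines were those of RRS1, UTP15, GNL3, and BYSL. RRS1, which brings the 5S particle into the 60S subunit, went from 43.2, 39.4, and 36.9 to 6.78, 6.75, and 4.24 FPKM in parental cells and from 62.4 to 83.3 (median 76.0) to 15.4 to 25.8 (median 20.7) in the MYCN lines. Its spike-in scaled mean change of -3.40 ± 0.091 was the largest of all members (adjusted p = 2.3e-22). UTP15 (chromosome 5, 72861268 to 72879205, plus strand), a processome subunit that acts in rRNA transcription, went from 5.68, 5.11, and 4.92 to 1.01, 0.720, and 1.20 FPKM in parental cells and from 8.18 to 11.8 (median 9.66) to 2.24 to 3.09 (median 2.69) in the MYCN lines (-3.23 ± 0.091 spike-in scaled, adjusted p = 5.66e-22). In neither gene did any CYC065 library reach a DMSO library of its line. GNL3 (chromosome 3, 52715172 to 52728513, plus strand) fell in SH-EP from 63.3, 60.8, and 65.5 to 11.6, 11.7, and 11.2 FPKM (-2.45 ± 0.073 as deposited, adjusted p = 2.69e-18), unlike the other nucleolar proteins of its group, which had deposited mean changes between -0.089 (MYBBP1A) and 0.64 (NPM1).

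POLR1B went from 18.4, 18.3, and 18.4 to 5.56, 6.27, and 4.79 FPKM in parental cells and from 19.2 to 24.5 (median 21.8) to 6.12 to 9.45 (median 8.02) in the MYCN lines, with a spike-in scaled mean change of -2.84 ± 0.088 (adjusted p = 3.46e-21). UBTF fell from 31.7, 33.3, and 33.7 to 13.0, 12.7, and 13.9 FPKM in parental cells and to 12.1 to 19.5 (median 16.3) in the MYCN lines (-2.76 ± 0.080, adjusted p = 9.48e-22). The CYC065 and DMSO libraries of both genes were apart in every line. RRN3 (chromosome 16, 15153890 to 15188168, minus strand), with 3 named pseudogenes, fell least of this group, from 17.4, 17.3, and 18.9 to 14.3, 14.1, and 14.6 FPKM in parental cells (-1.49 ± 0.077 spike-in scaled, adjusted p = 1.84e-16, and -0.15 as deposited). The median of the group was -2.30 spike-in scaled, beside -1.98 for the 40S factors, -1.90 for the 60S factors, -1.10 for box H/ACA, -1.04 for box C/D, and -0.83 for the nucleolar proteins.

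Several members held the middle. RRP9 had a deposited mean change of 0.054 ± 0.036 (adjusted p = 0.162), from 22.3, 22.3, and 19.5 to 22.1, 19.5, and 21.7 FPKM in parental cells, and these libraries overlap. GAR1 fell furthest of the H/ACA proteins (-1.64 ± 0.078 spike-in scaled, adjusted p = 3e-17). NOC4L, a 40S factor that binds NOP14, fell least of its group (-0.98 ± 0.10, adjusted p = 4.75e-10), as did NOC2L among the 60S factors (-0.59 ± 0.083, adjusted p = 1.81e-07). NOC3L, like NOC2L a nucleolar complex (NOC) protein, was at -2.38 ± 0.082 (adjusted p = 3.02e-20). Across the 45 members the deposited mean change went with the DMSO level (Pearson's r = 0.47, Spearman's rho = 0.51, n = 45 genes), and rho was 0.26 across all 11575 genes. Genes are not independent replicates and share the same libraries, so this is a description.

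**Figure D5:**
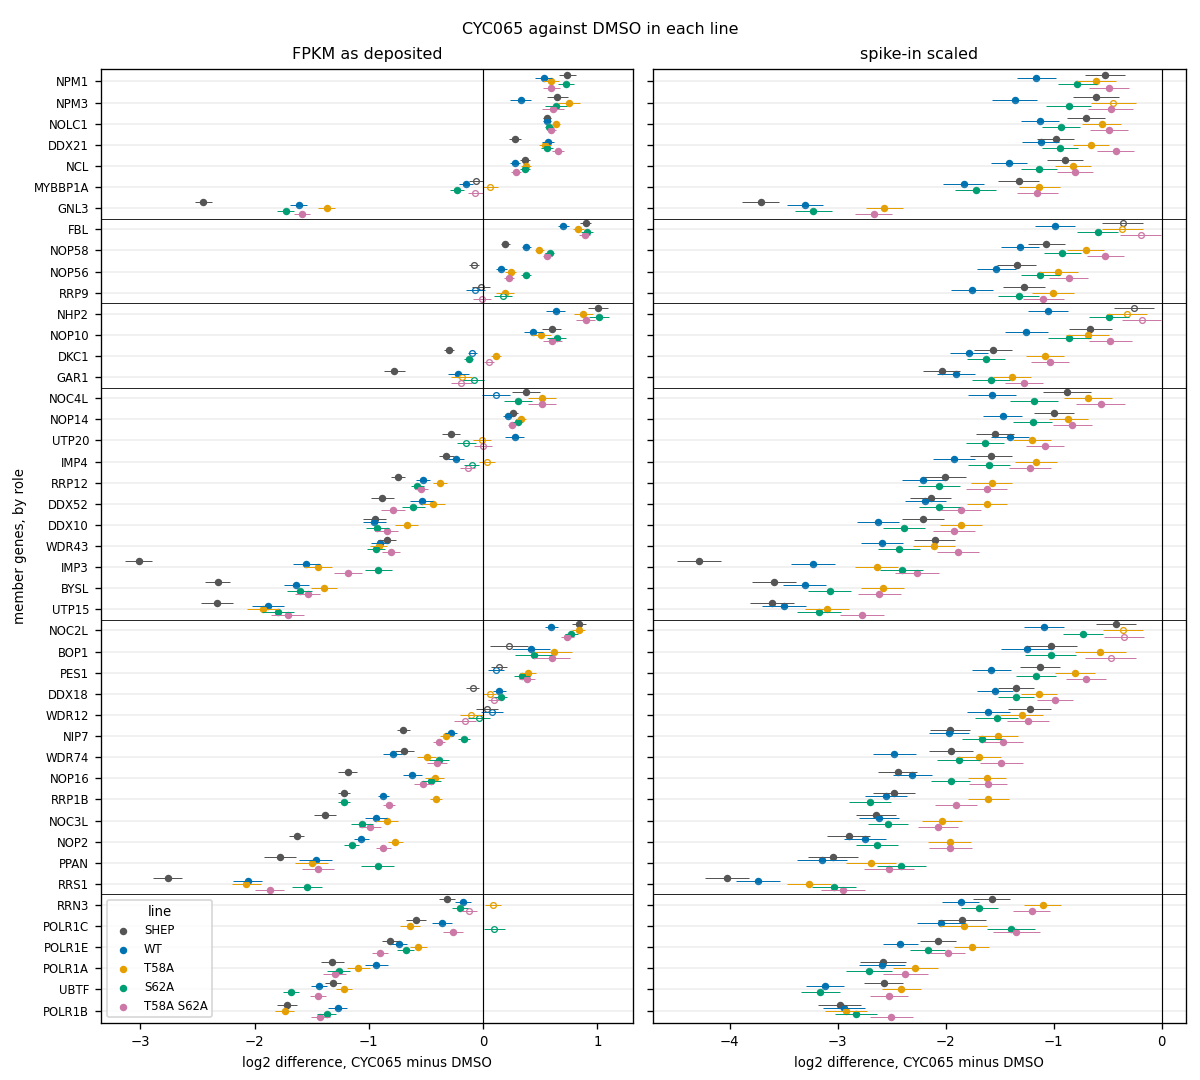
Log2 differences between CYC065 and DMSO in each of the 5 lines for the 45 members by role, with SE as bars, on FPKM as deposited at left and spike-in scaled at right. Filled points passed the test and open points did not. At left members of each role lie on both sides of 0 except for RNA polymerase I, where only POLR1C in S62A and RRN3 in T58A are right of it, and at right all points are left of 0, with IMP3 in SHEP farthest.

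The response to CYC065 was then compared between each MYCN line and SH-EP by the interaction. For FPKM as deposited, 18 of 45 members had a higher (less negative or more positive) change in WT than in SH-EP and 3 a lower one, where 10.4% and 18.1% of all genes did. In T58A 18 were higher (9.90% of all genes), in S62A 16 higher (10.9%) and 1, UBTF, lower (13.7%), and in the double mutant 15 higher (10.6%). Higher in all 4 lines were 12 members, BYSL, DDX21, DKC1, GAR1, GNL3, IMP3, NIP7, NOP16, NOP2, NOP56, NOP58, and RRS1, against 5.33% of all genes. The 3 lower ones in WT, FBL, NHP2, and NOC2L, became 1 without parental DMSO library c, parental CYC065 library a, or WT CYC065 library b or c, and 0 without WT DMSO library a.

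Fewer members passed the test after spike-in scaling, although the median was not smaller throughout. The members' median interaction was 0.19, 0.26, 0.19, and 0.21 as deposited and -0.23, 0.33, -0.048, and 0.38 spike-in scaled for WT, T58A, S62A, and the double mutant, beside -0.51, -0.0054, -0.28, and 0.084 for all genes on the latter scale. In WT 1 member was higher (1.82% of all genes) and 1, NHP2, lower (14.1%). The count was 2 in T58A (2.35%), 2 in S62A (3.11%), and 6 in the double mutant (5.27%). Only IMP3 was higher in all 4 lines, as were 1.39% of all genes. These small counts moved with single libraries. In the double mutant the 6 became 2 or 3 without any of the 3 parental DMSO libraries, parental CYC065 library c, double mutant DMSO library b or c, or double mutant CYC065 library a or c. In WT the 1 higher member, IMP3, was lost without parental DMSO library a or b, parental CYC065 library b, or WT CYC065 library b or c. In T58A the 2 became 6, and the 1 lower member of WT became 5, with the replicate block described with the processing alternatives. In T58A they became 4 without T58A DMSO library a and 6 without library c, in S62A the 2 became 1 without any of 10 of the 12 libraries, and in WT the lower count ranged from 0 to 7 over the 12 libraries, with 7 without WT DMSO library b.

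IMP3 (chromosome 15, 75931426 to 75941047, minus strand), a core protein of the U3 snoRNP complex, was at 41.1, 33.9, and 30.4 FPKM in parental DMSO libraries and at 5.21, 3.40, and 4.26 with CYC065. In the MYCN lines it was at 39.0 to 60.5 (median 55.7) FPKM in DMSO and at 17.2 to 27.8 (median 21.6) with CYC065. On FPKM as deposited, no CYC065 library of a MYCN line was as low as a parental one. Spike-in scaled, the parental CYC065 libraries were at 7.42, 4.89, and 4.98 FPKM. Those of S62A, at 6.31, 6.40, and 6.63, lay within that range, and those of WT, at 9.11, 6.99, and 8.07, overlapped it. The CYC065 libraries of T58A and the double mutant lay above it. Its spike-in scaled change was -4.28 ± 0.20 in SH-EP, and the smallest change of a line was -2.27. The interaction was 1.06 ± 0.28 for WT (adjusted p = 0.0297) and 1.64 ± 0.28 for T58A (adjusted p = 0.00134). It was higher still for S62A, at 1.88 ± 0.28 (adjusted p = 0.000143), and for the double mutant, at 2.02 ± 0.28 (adjusted p = 3.35e-05). IMP3 has 2 named pseudogenes.

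By the rule for naming members here, the next 5 were RRS1, GNL3, BYSL, NOP16, and NOP2. RRS1 had an interaction of 0.99 ± 0.29 in S62A (adjusted p = 0.0434) and 1.08 ± 0.29 in the double mutant (adjusted p = 0.0223). GNL3 passed the test in T58A (1.15 ± 0.24, adjusted p = 0.00577) and the double mutant (1.05 ± 0.24, adjusted p = 0.00638), with 29.0, 29.5, and 27.7 spike-in scaled FPKM in T58A CYC065 libraries against 16.5, 16.8, and 13.1 in parental ones. In WT it did not pass (0.41 ± 0.24, adjusted p = 0.184), nor did it in S62A. With CYC065, GNL3 was at 18.2, 17.3, and 18.0 spike-in scaled FPKM in WT and at 10.6, 9.99, and 9.90 in S62A. The S62A libraries were thus below all parental ones. BYSL (bystin, a 40S factor) was at 21.4, 20.8, and 19.4 FPKM in parental DMSO and 4.06, 3.63, and 4.39 in parental CYC065 libraries, and at 9.03 to 13.0 (median 10.7) with CYC065 in the MYCN lines (0.98 ± 0.28 in the double mutant, adjusted p = 0.0394). NOP16 (0.84 ± 0.25, adjusted p = 0.0473) and NOP2, a 28S rRNA methyltransferase (0.94 ± 0.28, adjusted p = 0.047), passed it in the double mutant alone. Their parental levels were 55.0, 59.5, and 52.1 FPKM in DMSO and 21.8, 22.6, and 29.2 with CYC065 for NOP16, and 31.5, 33.8, and 30.8 and 9.89, 10.7, and 10.2 for NOP2.

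Other genes of the pathway were read from 5 lists, of which 138 of 139 genes were tested. In FPKM as deposited 123, 90, 98, and 107 of them rose in WT, T58A, S62A, and the double mutant in DMSO, and 1, 2, 4, and 4 fell, where 31.6%, 30.9%, 31.0%, and 31.2% of all genes rose. The medians over the 138 were 0.50, 0.34, 0.37, and 0.39. After spike-in scaling 118, 96, 138, and 77 of the 138 fell, where 88.7%, 78.0%, 95.1%, and 70.2% of all genes did. Over the mean of the 4 lines on FPKM as deposited, 32 of 44 other 40S factors rose and 2 fell, where 34.6% of all genes rose and 26.3% fell, with DHX37 (1.12) and ESF1 (0.83) highest and HEATR1 (-0.28) and PDCD11 (-0.12) lowest. Of 47 other 60S factors 41 rose, led by CCDC86 (1.29) and DDX51 (1.17), with URB1 (0.020) and FTSJ3 (0.023) lowest. Of 15 other RNA polymerase I factors 11 rose, with CD3EAP (1.49) and POLR2F (0.74) highest and TAF1A (0.0030) and TAF1C (0.057) lowest. All 10 snoRNP assembly factors rose, from PIH1D1 (0.13) and RUVBL2 (0.23) to C12orf45 (0.97) and RUVBL1 (0.72), and 19 of 22 genes of the RNA exosome and RNase MRP, with POP1 (1.01) and EXOSC5 (0.92) highest and DIS3 (0.033) and EXOSC6 (0.043) lowest.

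With CYC065, 130 of the 138 genes fell on the spike-in scale in SH-EP, where 76.3% of all genes fell, and 138, 132, 136, and 123 in WT, T58A, S62A, and the double mutant, where 93.7%, 84.5%, 90.2%, and 76.4% did. On FPKM as deposited, the mean over the 5 lines rose for 52 and fell for 76 of the 138, where it rose for 46.9% and fell for 39.8% of all genes. The other RNA polymerase I factors had a deposited median of 0.28, whereas that of the 6 members of this role was -0.96, and the other 40S and 60S factors were at -0.35 and -0.14. The medians of these lists were not tested against each other.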

How the data were processed

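Stranded RNA-Seq of poly(A) RNA was examined in 30 libraries, 3 in each of 10 groups taken from the sample labels. For the deposited FPKM, the authors used HISAT2 for alignment to hg19 (GRCh37) and Cufflinks for quantification. The table covers 26228 genes and 92 ERCC spike-ins. The gene annotation is not given in the sources used here. Read totals are not in the table, so no counting error could be given.

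Spike-in scaling multiplied each library to bring the median of 55 spike-ins, those averaging 1 FPKM or more, to a common level. Genes averaging 1 FPKM or more (11575) were tested as log2(FPKM + 0.1) with limma 3.58.1 in R 4.3.3 (lmFit and eBayes with trend), in 1 fit over all groups, with Benjamini-Hochberg adjustment over all genes tested. A change on this log2 scale understates that of low genes. The script was tested on simulated data. The study's methods scale by spike-ins, and the deposited scale was added for the comparisons between lines.

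The members and gene lists were chosen with earlier results of these data known, so counts over them are descriptions. Full statistics were given for NCL, NPM1, FBL, POLR1B, and UBTF, for the members with the highest and the lowest mean change in each role (lines as deposited, CYC065 spike-in scaled), for the 6 largest mutant differences, for up to 6 members with an interaction in the most lines, for the 2 highest and 2 lowest genes of each pathway list, and for the 4 promoters with CACGTG and the highest change outside chromosome 8. Other members were named with fewer values, and 1 adrenergic marker is not reported here. Positions are from GENCODE on GRCh37 and promoters from RefSeq on GRCh38.p14, which were not mixed. Alternatives were the pseudocount, the filter, a fold limit, median centering, the spike-ins used, fits of only the groups compared, leaving out each library, and, chosen after seeing the data, spike-in scaling of the mutant comparison and the number of the column as a block.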

Additional observations from a re-analysis of the deposited data

Results flagged for a closer look

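For some members, the response to CYC065 differed between SH-EP and each MYCN line by the interaction in the limma fit. On FPKM as deposited it differed in either direction for 21 of 45 members of WT, 18 of T58A, 17 of S62A, and 15 of the double mutant T58A S62A. On the spike-in scale it did so for 2, 2, 2, and 6. Of the 11575 genes tested, the deposited interaction was higher for 1208, 1146, 1264, and 1229 in these lines. It was lower for 2098, 1619, 1588, and 1711. Spike-in scaled, it was higher for 211, 272, 360, and 610 genes and lower for 1637, 36, 199, and 22. Averaged over the 4 MYCN lines, the spike-in scaled interaction was 1.65 for IMP3, 0.78 for RRS1, 0.77 for GNL3, 0.70 for BYSL, 0.57 for NOP16, and 0.57 for NOP2, each a fall with CYC065 that was smaller in the MYCN lines on average than in the parental cells.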

How the results depend on the processing

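The columns are numbered within each group, but differently from the labels, and libraries with the same number did not deviate together (correlations of -0.119 to 0.149 over 12 comparisons of 2 groups, all 3 over 0.1 in 0 of them). With the column number as a replicate block, added after seeing the data, lower interactions in WT became 5 and higher ones in T58A 6 on the spike-in scale. Every library correlated best with its own number in 1 of the 12 comparisons, the double mutant against WT. The other 56 counts stayed within 1.5 times. The depth of the libraries is not known as read counts, which limits what can be said of members of a few FPKM, such as UTP15. Where a value below changed, the cause was not tested unless fewer genes, samples, or a stricter limit define the setting. Counts of members that passed the test moved as follows, and those not named here stayed within 1.5 times the main count.

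With no filter on low values, the higher members against WT became 2 in T58A and 0 in S62A, and on the spike-in scale the risen members in the double mutant became 1, the lower interactions in WT 0, and the higher interactions in S62A 1, which a filter at 5 FPKM also gave. With a change of at least 1.5-fold required, on FPKM as deposited 20 members rose in S62A and 0 fell in T58A or S62A against SH-EP. Against WT, 0 were higher and 0 lower in T58A and the double mutant, and 0 higher and 2 lower in S62A. Members risen with CYC065 became 6 for SH-EP, 3 for WT, 7 for T58A, 6 for S62A, and 9 for the double mutant, higher interactions 4, 8, 8, and 8 in the MYCN lines, and lower ones 0 in WT and S62A. Spike-in scaled, 0 rose and 9 fell in T58A, and 1 rose and 2 fell in the double mutant. With only the groups compared in the fit, the members higher and lower than WT were 0 and 8 in T58A, 0 and 15 in S62A, and 0 and 4 in the double mutant, and 1 had a lower interaction in WT. On the spike-in scale this fit gave 13 fallen members in the double mutant, 0 higher and 0 lower interactions in WT, 0 higher in T58A, and 1 higher and 1 lower in S62A. With spike-ins of at least 50 FPKM, 7 members fell in T58A and 0 in the double mutant, and interactions were 0 higher and 0 lower in WT and 1 higher in each of T58A, S62A, and the double mutant. With libraries centered on their median, 1 member had a lower interaction in WT. In the mutant comparison on the spike-in scale, chosen after seeing the data, 1 was higher and 0 lower in T58A, 0 higher and 45 lower in S62A, and 10 higher and 0 lower in the double mutant.

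Some members changed sign, and not all of them had been near 0. Those that had passed the test as deposited included DKC1 and RRN3 for the mean CYC065 change, and NOP58 for the double mutant against WT. With spike-ins of at least 50 FPKM the mean interaction was -0.0089 for RRP12, -0.081 for WDR74, -0.13 for DDX10, -0.051 for DDX18, and -0.038 for RRN3, and with a pseudocount of 0.01 it was -0.0019 for DDX10. With median centering the mean line change of NOC3L was -0.0047, the mean CYC065 change 0.0753 for MYBBP1A, 0.0945 for DKC1, and 0.0195 for RRN3, and the mean interaction of NOC4L 0.0159. On the spike-in scale the differences from WT were 0.0017 for GAR1, 0.057 for PPAN, and 0.17 for DDX10 in T58A, and 0.19 for GAR1, 0.19 for PPAN, 0.22 for DDX10, 0.21 for DDX18, and 0.11 for NOP58 in the double mutant.

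Leaving out each library in turn gave these ranges. On FPKM as deposited, fallen members were 0 to 1 in T58A and 1 to 3 in S62A, lower interactions in WT 0 to 4, and members higher than WT 1 to 4 in T58A, 0 to 1 in S62A, and 2 to 5 in the double mutant. Spike-in scaled, 0 to 1 rose and 17 to 35 fell in WT, 0 to 2 rose and 8 to 18 fell in T58A, and 1 to 2 rose and 3 to 10 fell in the double mutant. Interactions were 0 to 1 higher and 0 to 7 lower in WT, and 2 to 6, 1 to 2, and 2 to 7 higher in T58A, S62A, and the double mutant. Members that changed sign in some of these fits ranged, as deposited, from -0.0357 to 0.0653 for the line change of NOC3L, and for the interaction from -0.1116 to 0.1006 for NOC4L and -0.0721 to 0.0253 for MYBBP1A. Spike-in scaled, NPM1 ranged from -0.0528 to 0.0442 for the line change, and interactions from -0.0813 to 0.0576 for DDX10, -0.0942 to 0.0595 for RRP9, -0.3137 to 0.0403 for NOC4L, -0.013 to 0.325 for POLR1B, -0.0224 to 0.1771 for WDR74, and -0.0321 to 0.2051 for DDX18.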
